A study of Mus musculus with 6 samples.

Results

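The lysyl oxidases are 5 secreted enzymes, encoded in the mouse by Lox, Loxl1, Loxl2, Loxl3 and Loxl4. Members were chosen by name, as all probes that the platform annotation assigns to 1 of these symbols. That gave 7 probes for 4 of the 5 genes, out of 45281 probes and 19057 named genes: 1 probe for Lox, 2 for Loxl1, 1 for Loxl3 and 3 for Loxl4. No probe was named for Loxl2, which was not analysed here. RNA came from C57Bl/6NCr mouse embryonic fibroblasts, connective tissue cells grown out of a dissociated embryo. Cells with both copies of Lasp1 intact (Lasp1+/+, wild type) were compared with cells in which both copies were disrupted (Lasp1-/-, knockout), with 3 Illumina bead arrays for each genotype. LASP1 binds actin filaments through its nebulin repeats and gathers at focal adhesions, and the title of the study links its loss to faster migration and to tumours. How the allele was disrupted, how old the embryos were and how many cultures or embryos lie behind the arrays is not stated in the labels. All p-values therefore measure only array-to-array spread, and that spread may be technical.

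Lysyl oxidases use copper and a quinone cofactor made from their own side chains to oxidise lysine residues of collagen and elastin to aldehydes. The aldehydes then react with neighbouring lysines and form the covalent bonds that make collagen fibrils stiff and elastic fibres insoluble. LOX and LOXL1 are made as proenzymes that proteases of the BMP1 family cleave, whereas LOXL2, LOXL3 and LOXL4 carry scavenger receptor cysteine-rich domains in front of the shared catalytic domain. Fibroblasts are a main source of these enzymes and of their substrates.

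Every array had a median intensity of 1000 on the deposited linear scale and an upper quartile between 2018 and 2330. Intensities near 1000 lie in the range of background, so folds of probes close to it are understated. Lasp1 itself was lower in the knockout at its brightest probe, at 50898 ± 1072 against 144104 ± 7634 in wild type (SD, n = 3 each, limma adjusted p = 1.17e-05). That is 35.3% of wild type, still well above background. Of its 3 probes limma called 2, the other of them at 24.4% of wild type. The third, near background, was not called (-0.26 on the log2 scale, limma adjusted p = 0.116 over all named probes). Across all genes, limma called 418 higher and 778 lower in the knockout at an adjusted p under 0.05, which is 6.28% of genes. Rises made up 34.9% of these calls in the deposited scaling and 48.2% after quantile normalization. All 10 fibroblast markers exceeded the all-probe median (993, over the mean of each probe) in wild type, knockout or both. That bar is near background, and 11985 of 19057 genes had a mean over all arrays above it. In wild type, knockout or both, 6 of 8 epithelial, 6 of 7 cartilage, 4 of 7 endothelial and 4 of 6 leukocyte markers exceeded it too. Of the 10 fibroblast markers, 5 fell (Col1a2, Dcn, Lum, Pdgfrb and Thy1). Among all genes 4.08% fell and 2.19% rose, which is also the measure for the marker lists that follow. The summed intensity of the 10 ran from 848861 to 977047 in wild type and from 664379 to 703672 in knockout. A few bright probes made up most of it, such as Thy1 (273486 in wild type), Col1a1 (264623) and Vim (148303). Of 8 epithelial markers 3 fell (Krt14, Krt8 and Krt19), with sums of 23718 to 29060 in wild type and 11074 to 11887 in knockout. Mean intensities, wild type first, were 15557 and 2565 for Krt14 and 2953 and 2172 for Krt19. Krt14 was the largest part of the wild-type sums. Cldn4 (879 and 1094) and Krt18 (1387 and 1570), not called, were higher in every knockout array than in any wild-type array. Cdh1 and Epcam stayed near or below 1000 in both genotypes. Of 6 leukocyte markers 1 rose (Lyz2), with sums of 8826 to 10062 and of 11660 to 12310. Lyz2 read 3772 in wild type and 5535 in knockout and Cd14, not called, 1822.5 and 2319.8, whereas Ptprc was below 1000 in both genotypes. Of 7 endothelial markers 1 rose (Emcn), with sums of 9070 to 9589 and of 9851 to 10490. Emcn read 2367 in wild type and 3634 in knockout and Tek, not called, 2147 and 1750, whereas Cdh5 was below 1000 in both. Of 7 cartilage cell markers 1 rose (Col2a1) and 2 fell (Comp and Sox9), with overlapping sums of 53815 to 65027 and of 57255 to 66209. Sox9 read 47448 in wild type and 34290 in knockout, the largest part of these sums, whereas Acan was near 1000 in both. The part of these shifts in the results that follow was not tested, and in bulk RNA fewer cells of a type and less RNA per cell cannot be told apart.

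Lox and Loxl1 gave strong signals of similar size in both genotypes, Loxl3 was barely above background, and Loxl4 was higher in the knockout at 1 of its 3 probes. At the level of genes, each represented by its brightest probe, limma called 0 of the 4 measured members, against 6.28% of all genes. None of the 4 had an unadjusted p under 0.05, which 18.6% of all genes had, and none was called under any of 14 alternative settings. Among the 7 probes, 1 was called at an adjusted p under 0.05 over all named probes, against 4.55% of these probes. The knockout arrays lay entirely above the wild-type arrays at 2 of the 7 probes, both of Loxl4, against 6.86% of all named probes. At no family probe did they lie entirely below, so 2 of 7 did not overlap, against 19.5% of all named probes, and the other 5 overlapped.

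Lox, the founding member and the main crosslinker of fibrillar collagen, was read by a single probe (ILMN_2997494). The wild-type arrays gave 250845, 248888 and 253654, and the knockout arrays 260707, 282476 and 237959. The 3 wild-type arrays lay within a narrow band and the knockout arrays lay on both sides of it. The wild-type mean was 251129 ± 2396 and the knockout mean 260381 ± 22260 (SD, n = 3 each), so that the coefficient of variation was 0.954% in wild type and 8.55% in knockout. The log2 difference of knockout minus wild type was 0.05 ± 0.08 (SE), with a 95% interval from -0.13 to 0.23 and a limma adjusted p of 0.846. On the fold scale that interval runs from 0.912 to 1.17, so a difference inside these bounds could not be resolved. The sign of the difference depended on 1 array, as it was -0.012 without knockout replicate 2.

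Loxl1, which binds elastic fibre proteins and is needed for elastin deposition in mice, was read by a bright and a dim probe. At the bright probe (ILMN_1255871) the wild-type arrays gave 186801, 222649 and 200552, and the knockout arrays 201449, 205541 and 200830. Here the knockout arrays formed the narrow band, inside the range of the wild-type arrays. The means were 203334 ± 18085 and 202606 ± 2559.7 (SD, n = 3 each), with coefficients of variation of 8.89% and 1.26%. The log2 difference was -0.0015 ± 0.08 (SE), the 95% interval ran from -0.19 to 0.18, and the limma adjusted p was 0.998. The dim probe (ILMN_1257592) had means of 825 ± 28.6 (wild type) and 891 ± 72.1 (knockout, SD, n = 3 each), below the array median in every array, and gave a log2 difference of 0.11 ± 0.08 that did not pass (limma adjusted p = 0.596 over all named probes).

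**Figure D1:**
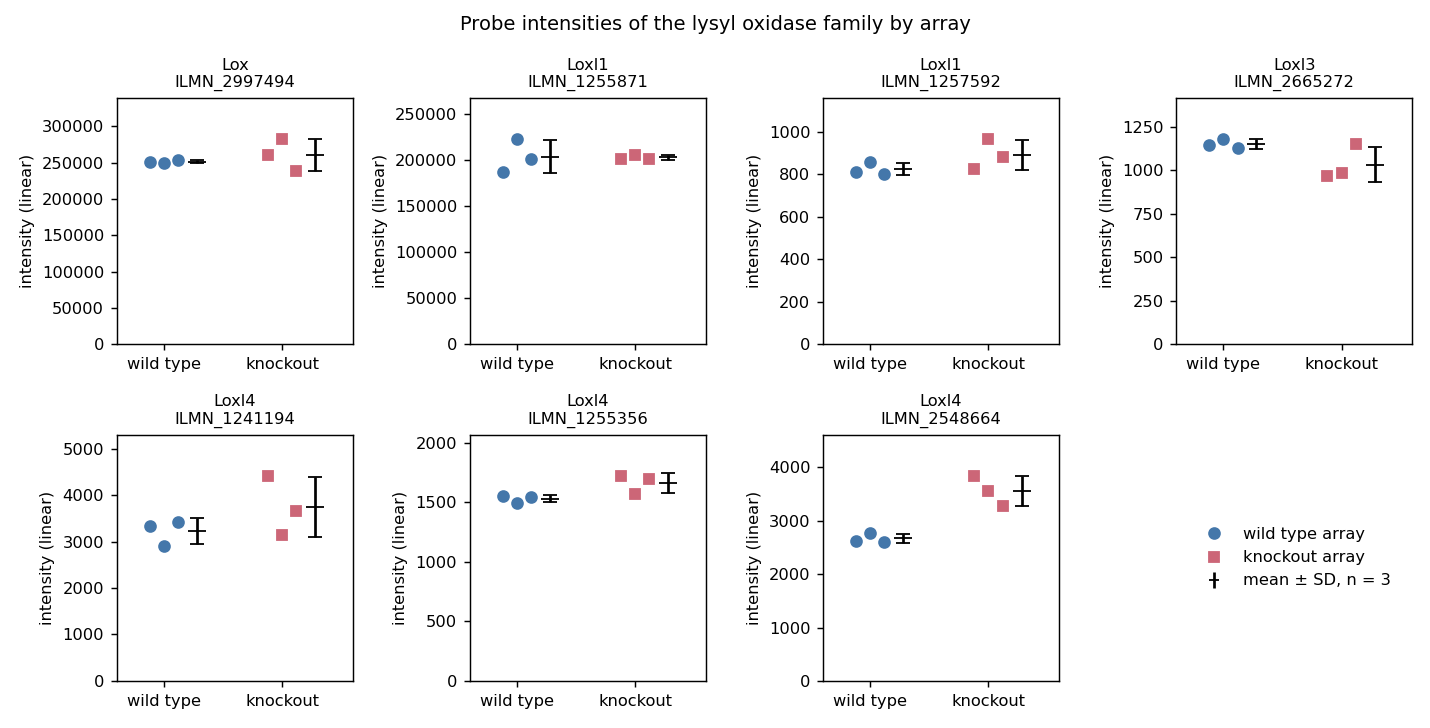
Linear probe intensity (vertical axis of each panel, starting at 0) of the 7 lysyl oxidase family probes in the 3 wild-type (circles) and 3 knockout (squares) arrays, with the mean and SD. The groups overlap at Lox, Loxl1 and Loxl3, and at the Loxl4 probe ILMN_2548664 the knockout arrays (3280 to 3845) lie above the wild-type arrays (2608 to 2775).

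The signal of Lox and Loxl1 was near the top of the scale, and whether it was still proportional to RNA there was not tested. Between 65 and 90 probes per array were brighter than the Lox probe, and between 117 and 138 were brighter than the bright Loxl1 probe. Of 71 other genes with a mean intensity of at least 200000, a bound set after the data had been seen, limma called 8 (3 higher and 5 lower), against 6.28% of all genes, with log2 differences of all 71 between -0.60 and 0.58. Thy1, a surface protein of fibroblasts, was among them, falling from 273486 ± 39128 to 179716 ± 13180 (SD, n = 3 each, limma adjusted p = 0.0145).

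Loxl3, which is needed for palate and spine formation in mice, was close to background. Its probe (ILMN_2665272) read 1146, 1179 and 1127 in wild type and 965, 981 and 1148 in knockout. Knockout replicates 1 and 2 lay below the wild-type arrays and knockout replicate 3 within them. The means were 1150.4 ± 26.4 and 1031 ± 101 (SD, n = 3 each), a log2 difference of -0.16 ± 0.08 (SE) with a 95% interval from -0.35 to 0.03 and a limma adjusted p of 0.370. The probe was brighter than 59.1% of all probes on average over the arrays, so most of its reading may be background in either genotype.

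Loxl4, a member with scavenger receptor domains whose role in fibroblasts is less well defined, was the only member with a called probe. That probe (ILMN_2548664) read 2627, 2775 and 2608 in wild type and 3845, 3550 and 3280 in knockout. Every knockout array was above every wild-type array. The means were 2669.8 ± 91.1 and 3558 ± 283 (SD, n = 3 each), a log2 difference of 0.41 ± 0.08 (SE) with a 95% interval from 0.24 to 0.59, or 1.33-fold, and a limma adjusted p of 0.0183 over all named probes. The exact two-sided permutation p was 0.1, the smallest that 3 arrays against 3 allow.

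The other Loxl4 probes were higher on average in the knockout but did not pass. The brightest of them (ILMN_1241194), annotated to another transcript record, gave 3331, 2915 and 3431 in wild type and 4422, 3154 and 3665 in knockout. Its groups overlapped through knockout replicate 2, and the log2 difference was 0.21 ± 0.12 (SE, 95% interval -0.07 to 0.48, limma adjusted p = 0.451 over all genes). The dimmest (ILMN_1255356) gave 1555, 1495 and 1544 in wild type and 1724, 1568 and 1698 in knockout. There the groups did not overlap, and the log2 difference was 0.12 ± 0.07 (SE, limma adjusted p = 0.476 over all named probes). The mean over the 3 probes gave 0.25 ± 0.07 (SE, limma adjusted p = 0.107), so the call rests on 1 probe and not on the gene as a whole. At that probe the call was kept under 8 of 13 alternatives and the log2 difference stayed between 0.35 and 0.52. The other 5 ended it. They were the fit with the replicate number as a block, 3 fits without 1 array and 1 with background correction. Limma no longer called it without wild type replicate 3 (0.40, adjusted p = 0.0989), without knockout replicate 1 (0.35, adjusted p = 0.0502), without knockout replicate 2 (0.41, adjusted p = 0.0730) or after background correction (0.52, adjusted p = 0.199). The background correction also widened the SE, to 0.16.

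**Figure D2:**
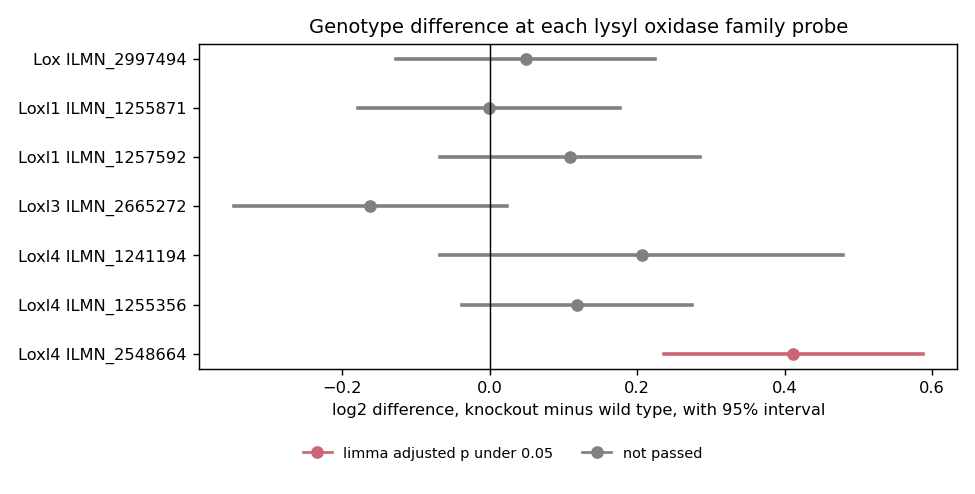
Log2 difference of knockout minus wild type (horizontal axis) at each of the 7 probes, as a point with its 95% interval from limma over all named probes. The interval lies wholly above 0 at the Loxl4 probe ILMN_2548664 (0.24 to 0.59) and spans 0 at the other 6.

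The genes whose values over the 6 arrays were most like those of a member were found by the root mean square difference of log2 values after each gene was centred on its own mean, among 11984 other genes whose mean exceeded the all-probe median. For Lox these were Clec3b (0.0097), Col17a1 (0.015) and Atp6ap1 (0.017), and for Loxl1 they were B3galt4 (0.013), Ces1a (0.016) and Zfp866 (0.019). For Loxl3 they were Otop3 (0.023), Rgs7 (0.033) and Hopx (0.039), and for Loxl4, at its brightest probe, Dgkh (0.043), Sod3 (0.048) and Nptx2 (0.050). None of these 12 genes was called by limma between the genotypes, with adjusted p values of 0.282 to 0.950. Since they were picked for likeness to members that were not called, that outcome followed from the choice and is no separate result. Several were near background, such as Clec3b (1143 in wild type, 1183 in knockout) and Ces1a (1179 and 1193), unlike the bright Lox and Loxl1 probes.

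The substrates of the family were set beside it. Elastin and 1 chain of collagen I were lower in the knockout at the level of RNA, while the 95% intervals of Lox and Loxl1 reached no lower than -0.13 and -0.19 on the log2 scale. Of 12 measured genes for fibrillar collagens and elastin, limma called 2 higher and 2 lower and 8 did not pass, against 2.19% higher and 4.08% lower among all genes, with a median log2 difference of -0.17 against -0.02 for all genes. Eln, the core of elastic fibres, gave 30299, 46496 and 39712 in wild type and 20861, 21579 and 22020 in knockout. All knockout arrays were below all wild-type arrays, and the log2 difference was -0.83 ± 0.14 (SE, limma adjusted p = 0.00749), with a second, dim probe at background showing no fall (0.03). Col1a2, the second chain of collagen I, fell to 55.8% of wild type (-0.84 ± 0.17 SE, limma adjusted p = 0.0170), whereas Col1a1, its partner chain, gave a log2 difference of -0.22 that did not pass (limma adjusted p = 0.102), with groups that did not overlap. The 10 fibroblast markers, Col1a2 and Col1a1 among them, had a median log2 difference of -0.55, and their part in the lower matrix genes was not tested. Col24a1, a minor fibrillar collagen, rose by 0.69 ± 0.12, and Col2a1 of cartilage rose from 1207 to 18527, with a wild-type level near background. Of 4 Col24a1 probes, limma called 2 in the fit over all named probes, with log2 differences of the 4 from 0.02 to 0.69. Without wild type replicate 3 the calls of Eln (-0.81, adjusted p = 0.0563), Col1a2 (-0.87, adjusted p = 0.0825) and Col24a1 (0.63, adjusted p = 0.0808) were lost, and without knockout replicate 3 those of Eln (-0.85, adjusted p = 0.0512) and Col1a2 (-0.85, adjusted p = 0.0912). Without knockout replicate 2 limma did not call Col1a2 (-0.73, adjusted p = 0.0750) or Col24a1 (0.68, adjusted p = 0.0550).

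Proteins that process or dock the enzymes and their substrates gave 0 rises and 2 falls among 17 measured genes, against 2.19% rising and 4.08% falling among all genes. The median log2 difference was -0.16, against -0.02 for all genes. Postn, periostin, a matrix protein that brings BMP1 to its substrates, fell to 58.5% of wild type (-0.77 ± 0.08 SE, limma adjusted p = 0.000809) at its brightest probe, and its other 2 probes were at background. Fmod, a collagen-binding proteoglycan that modulates crosslinking by LOX, fell by 0.83 on the log2 scale (SE 0.16, limma adjusted p = 0.0141). Its second probe, near background, gave -0.14 with overlapping groups (limma adjusted p = 0.466 over all named probes). The Fmod call was lost without wild type replicate 3 (-0.77, adjusted p = 0.0899), knockout replicate 2 (-0.83, adjusted p = 0.0599) or knockout replicate 3 (-0.81, adjusted p = 0.0883). Bmp1, the protease that activates LOX and LOXL1, did not pass, with a log2 difference of -0.12 ± 0.13 (SE, limma adjusted p = 0.754), and was chosen for its role after its value had been seen.

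The change relative to the enzymes was measured as the log2 ratio of a gene to Lox or Loxl1 within an array, in 14 comparisons. The 7 genes compared were those called among the substrates, the processing and docking proteins and the transglutaminases and other crosslinkers, a choice made after values had been seen. Relative to Lox, Eln fell to 54.3% of its wild-type ratio, Col1a2 to 53.9%, Fmod to 54.3% and Postn to 56.6%. Relative to Loxl1 the same ratios were 56.2%, 55.8%, 56.2% and 58.6%. The other 2 called substrates went the opposite way, as Col2a1 was at 1467% and Col24a1 at 155% of the wild-type ratio to Lox, and at 1519% and 161% of that to Loxl1. In all 14 comparisons the knockout arrays lay outside the range of the wild-type arrays, and the exact two-sided permutation p was 0.1, the smallest 3 arrays against 3 allow, and 0.1 after Benjamini-Hochberg adjustment. Since the genes had been called beforehand, these ratios describe the size of the gap in intensity and do not test it independently. Whether the gap in RNA has this size was not tested, as Lox and Loxl1 lie near the top of the scale.

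**Figure D3:**
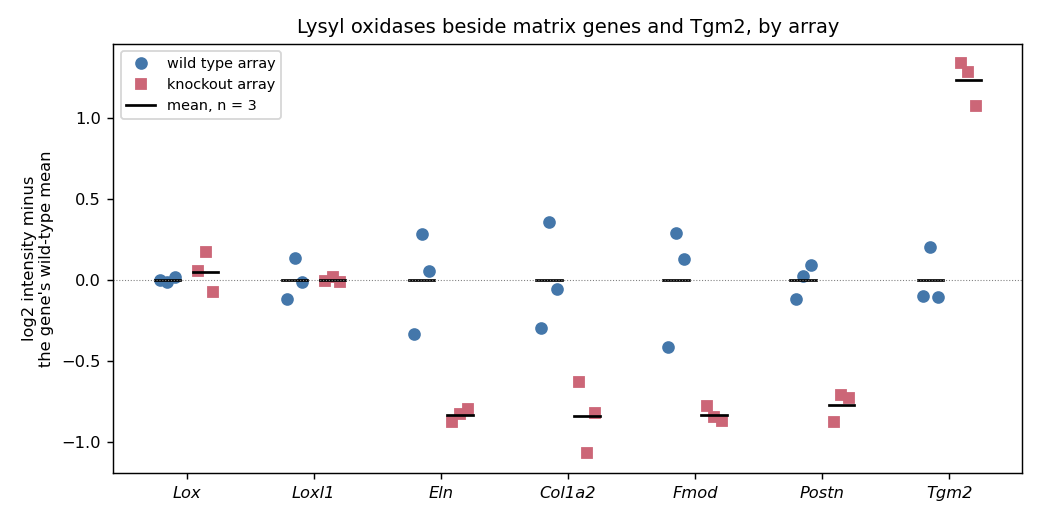
Log2 intensity of each array minus the gene's wild-type mean (vertical axis) for Lox, Loxl1, Eln, Col1a2, Fmod, Postn and Tgm2, with wild-type arrays as circles, knockout arrays as squares and group means as bars (n = 3). Knockout means are 0.05 and -0.0015 for Lox and Loxl1, between -0.84 and -0.77 for the 4 matrix genes that fell, and 1.23 for Tgm2. The called substrates that rose, Col2a1 (3.92) and Col24a1 (0.69), are not drawn.

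An enzyme that crosslinks by another reaction rose in the knockout. Tgm2, a transglutaminase that joins glutamine to lysine side chains and needs calcium, not copper, gave 7242, 8941 and 7211 in wild type and 19550, 18842 and 16327 in knockout. The groups were far apart, with a log2 difference of 1.23 ± 0.11 (SE, 2.34-fold, limma adjusted p = 0.000254), and its second probe, near background, gave 0.15 (limma adjusted p = 0.328 over all named probes). Limma called it under all 14 alternatives. It was the only called gene of 7 transglutaminases and other crosslinkers, against 6.28% called among all genes. The median log2 difference of the 7 was 0.03. Relative to Loxl1 within arrays, Tgm2 was at 235% of its wild-type ratio.

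Collagen lysines are hydroxylated and prolines modified inside the cell before lysyl oxidases meet them outside it. Among 19 measured genes of this step, 1 rose, 1 fell and 17 did not pass, against 2.19% rising and 4.08% falling among all genes. Their median log2 difference was -0.13. The prolyl hydroxylase subunit P4ha2 rose by 0.37 ± 0.09 (SE, limma adjusted p = 0.0450) and P4ha3 fell by 0.50 on the log2 scale (SE 0.10, limma adjusted p = 0.0209). Of 3 P4ha2 probes, limma called 1 in the fit over all named probes, with log2 differences of the 3 from -0.05 to 0.37. P4ha2 lost its call without any 1 of 5 arrays (all but wild type replicate 2, adjusted p up to 0.201), and P4ha3 without wild type replicate 3 (-0.44, adjusted p = 0.115), knockout replicate 2 (-0.40, adjusted p = 0.0677) or knockout replicate 3 (-0.55, adjusted p = 0.0725). The lysyl hydroxylases, named here for their role after their values had been seen, were at 3880 ± 416 and 3002 ± 362 for Plod1, and at 5024 ± 752 and 6690 ± 853 for Plod2 (SD, n = 3 each, wild type first). Plod3, the third of them, was at 104777 ± 1008 and 93829 ± 8892, a log2 difference of -0.16. None of the 3 passed (limma adjusted p = 0.0868, 0.102 and 0.362), although the groups did not overlap in any of them, which held for 21.3% of all genes.

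Copper reaches the lysyl oxidases in the secretory pathway. Of 13 measured copper supply genes, 0 rose, 1 fell and 12 did not pass, near the 6.28% called among all genes. Their median log2 difference was -0.0059. The genotypes did not overlap in 5 of the 13, against 21.3% of all genes. Besides Commd1, these were Slc31a1 (-0.21) and Steap3 (-0.45), lower in the knockout, and Mt1 (0.24) and Mt2 (0.30), higher. Commd1, a regulator of copper export, fell by 0.37 on the log2 scale (SE 0.08, limma adjusted p = 0.0230). Its second, dimmer probe gave -0.25 with overlapping groups (limma adjusted p = 0.233 over all named probes). The Commd1 call was lost without wild type replicate 3 (-0.40, adjusted p = 0.0703), knockout replicate 2 (-0.38, adjusted p = 0.0722) or knockout replicate 3 (-0.32, adjusted p = 0.118). Atp7a, the pump that loads copper onto secreted enzymes, and Atox1, the chaperone that feeds it, had log2 differences of -0.09 ± 0.12 and -0.0059 ± 0.09 (SE, limma adjusted p = 0.804 and 0.988). Both were named for their role after their values had been seen.

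**Figure D4:**
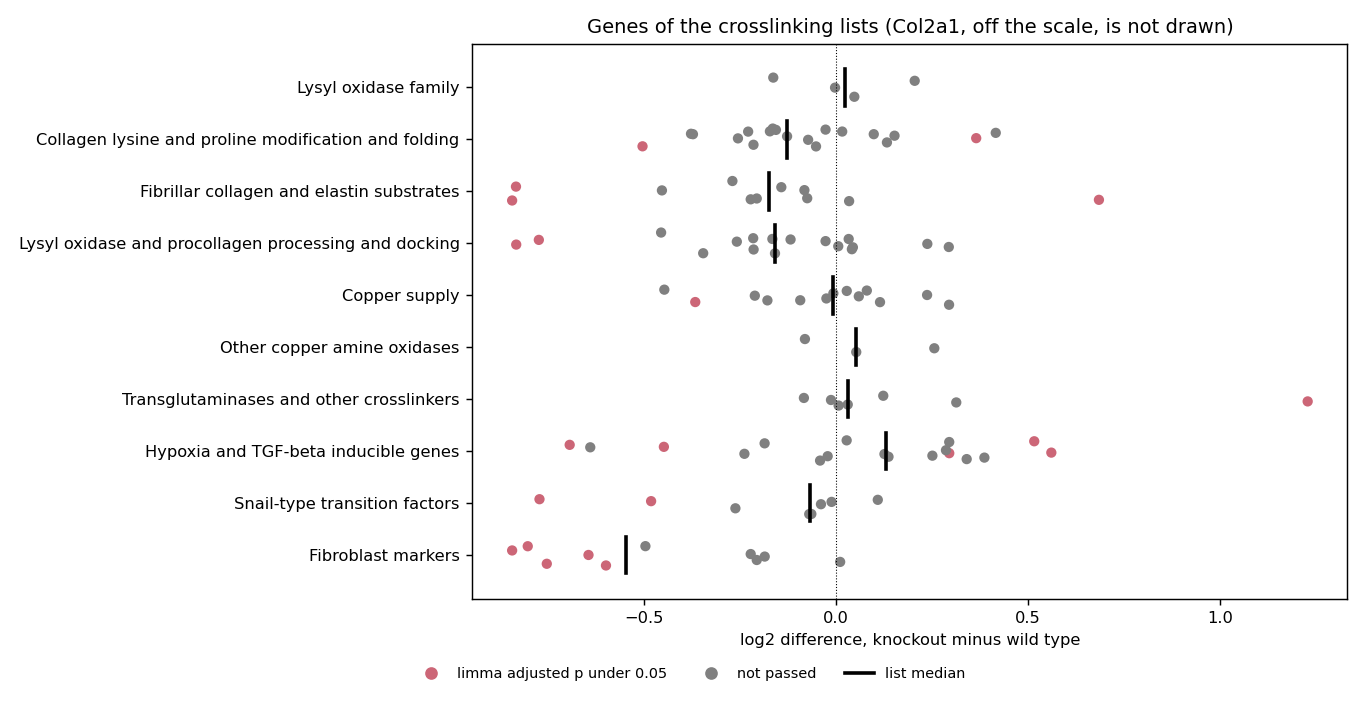
Log2 difference of knockout minus wild type (horizontal axis) for each measured gene of the 9 lists and of the fibroblast markers, with genes called by limma in red and the list median as a bar. Col2a1 (3.92) lies off the scale and is not drawn. The 4 lysyl oxidases lie between -0.16 and 0.21, and no gene among them was called.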

How the data were processed

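The authors deposited linear probe intensities, with every array at a median of 1000. Per the labels' protocols, total RNA was amplified to biotin-labelled cRNA for Illumina arrays. The labels used here name no scanner software and no background step. Of 45281 probes, 34885 had 1 gene symbol in the supplied platform annotation, and 34807 of those had an Entrez identifier in a RefSeq table (GRCm38.p6), used for names only. Each gene took the values of its brightest probe (highest mean log2). The fit of log2 intensities of all 6 arrays used lmFit and eBayes of limma 3.58.1 under R 4.3.3 (genotype as the only term, 4 residual and 5.13 prior degrees of freedom), over 19057 genes and, for single probes, over all named probes. Two-sided p-values received the Benjamini-Hochberg adjustment and were called under 0.05. The number of arrays limits the precision.

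Lists held 147 entries, of which 139 were measured. Members and lists were chosen with earlier results of these data known. Named genes were all members, Lasp1, fibroblast markers, up to 3 called rises and 3 called falls per list (arrays of the genotypes not overlapping, brighter genotype above the all-probe median), and the 3 genes most like each member. Alternatives were quantile normalization, median centring, normexp background correction (offset 50), brighter features only, trend and robust eBayes, array weights, the mean of all probes, leaving out each array in turn, and a block for the replicate number. The fit was also run on simulated data with known changes. The noise there was drawn independently for each probe, so array-wide differences in scale were not covered.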

Additional observations from a re-analysis of the deposited data

How the results depend on the processing

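Under 14 alternatives limma called none of Lox, Loxl1, Loxl3 and Loxl4 as genes. Adjusted p values ran from 0.107 to 0.999. Lox stayed between -0.012 and 0.11, both without 1 array. Loxl1 changed sign to 0.058 after quantile normalization, 0.0072 with array weights and 0.054 as the mean of its probes, and ran from -0.061 to 0.066 without 1 array. The called Loxl4 probe was lost after normexp (0.52, adjusted p = 0.199), and ran from 0.35 to 0.47 without 1 array. Deviations of same-numbered arrays from their group means had correlations of -0.41, -0.34 and 0.22. Array-wide differences in scale enter these values, so they cannot decide whether replicate numbers pair the arrays. With the replicate number as a block the Loxl4 probe was at 0.41 with an adjusted p of 0.0904, and over all genes 179 were higher and 236 lower. Over all genes the counts were 1010 higher after quantile normalization, 222 higher and 316 lower after normexp, and 985 higher and 2282 lower with array weights. Without 1 array they ran from 207 to 729 higher and from 244 to 1217 lower. The cause was not tested.

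List counts moved as follows. Collagen modification had 2 higher and 3 lower after quantile normalization, 0 and 0 after normexp or with the block, 0 higher with trend, 5 lower with array weights and 2 lower as the mean of probes, and 0 to 1 higher and 0 to 2 lower without 1 array. Substrates had 1 higher and 1 lower after normexp or with the block, 5 lower with array weights, and 1 to 2 higher and 0 to 3 lower without 1 array. Processing and docking had 1 higher after quantile normalization, 2 higher and 7 lower with array weights, 1 lower with the block, and 0 to 1 higher and 1 to 3 lower without 1 array. Copper supply had 1 higher and 2 lower after quantile normalization or with array weights, 0 lower after normexp or with the block, 2 lower among brighter genes, and 0 to 2 lower without 1 array. Other amine oxidases had 1 higher with array weights and 0 to 1 without 1 array. Hypoxia and TGF-beta genes had 8 higher after quantile normalization, 0 after normexp, 8 higher and 4 lower with array weights, 1 lower with the block or as the mean of probes, and 2 to 6 higher and 1 to 3 lower without 1 array. Snail-type factors had 1 lower after normexp or with the block and 1 to 3 without 1 array. Background near 1000 limits what dim probes such as that of Loxl3 can show.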

Other observations

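Hypoxia and TGF-beta induce Lox in several cell types, and other genes that respond to them were measured here. Of 18 such genes 3 rose, 2 fell and 13 did not pass in limma, against 2.19% rising and 4.08% falling among all genes. Their median log2 difference was 0.13. Ccn2, a matricellular protein induced by TGF-beta, rose by 0.56 ± 0.07 (SE, limma adjusted p = 0.00218), and the glucose transporter Slc2a1 by 0.52 ± 0.07 (adjusted p = 0.00372). Ankrd37, a hypoxia-induced gene close to background here, rose by 0.30 ± 0.07 (adjusted p = 0.0487), with a call kept under 6 of 14 alternatives. In the other direction, Ndrg1, a hypoxia-induced gene, fell by 0.69 on the log2 scale (SE 0.10, adjusted p = 0.00292) and Car9, a carbonic anhydrase, by 0.45 (SE 0.07, adjusted p = 0.00832). The called members therefore did not share a direction. The genotypes did not overlap in 11 of the 18 genes, against 21.3% of all genes. Among those not called, Egln3 (0.34), Ldha (0.29), Pdk1 (0.25) and Pgk1 (0.39) lay wholly above in the knockout. Skil (-0.24) and Tgfb1 (-0.64), also not called, lay wholly below. The other 2 probes of Car9 were at background, with log2 differences of -0.03 and -0.05. Its call was kept under 11 of 14 alternatives and was lost as the mean of its probes (-0.18, adjusted p = 0.114) and without knockout replicate 3 (-0.40, adjusted p = 0.0542), besides the replicate block. Leaving out wild type replicate 1 raised the count of rises to 6.

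LOXL2 and LOXL3 are known to bind SNAI1, a transcription factor of epithelial to mesenchymal transition. Snai1 had a wild-type mean of 7650 ± 549 and a knockout mean of 7325 ± 594 (SD, n = 3 each), with a log2 difference of -0.06 ± 0.09 (SE, limma adjusted p = 0.811), and was named for that role after its value had been seen. Of 8 factors of this kind limma called 2, both lower, against 4.08% of all genes called lower. Twist1 fell by 0.77 on the log2 scale (SE 0.09, adjusted p = 0.0015), under all 14 alternatives, and Twist2 by 0.48 (SE 0.09, adjusted p = 0.0115). Without wild type replicate 3 (-0.49, adjusted p = 0.0607), knockout replicate 2 (-0.43, adjusted p = 0.0564) or knockout replicate 3 (-0.45, adjusted p = 0.0768) Twist2 was not called. Among the 3 other copper amine oxidases (Aoc1, Aoc2 and Aoc3) limma called none, against 6.28% of all genes. An unadjusted p under 0.05 was found for 0 of 3, against 18.6% of all genes, and 1 was called higher with array weights.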
